A study of Mus musculus with 6 samples.

Results

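The new lncRNAs of 2500 nt or more are the longest of the unannotated transcripts recovered from mouse cortex in this study of subarachnoid haemorrhage (SAH), bleeding into the space around the brain. They were chosen by length alone, as every deposited record whose RNA sequence had 2500 nt or more, which gave 483 of 8040 records (6.01%) and 16.6% of all deposited bases. RNA was sequenced from brain cortex tissue of wild type C57BL/6 mice (C57BL/6 J in the study's methods), in 3 control libraries and 3 SAH libraries taken at 24 h. Adult male mice of 8 to 12 weeks were used, the bleeding was made by endovascular perforation, and the controls, which the labels call normal, had the same surgery without perforation. Each library pooled 3 of the 18 mice, so an animal cannot be followed on its own. Each deposited record holds an identifier, an RNA sequence, a predicted secondary structure in dot-bracket form and a free energy, once for the whole series. No record has a value per library, so depth is unknown and control and SAH were not compared. What follows compares the 483 long records with the 7557 shorter ones.

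A lncRNA is an RNA longer than 200 nt that is not known to be translated, and many act in the nucleus, on chromatin or as a scaffold for proteins. An RNA strand folds back on itself wherever it meets a complementary stretch, and stems rich in G and C, or long stems, release the most free energy. Mouse transcripts that cross introns or intergenic DNA often carry interspersed repeats such as the B1 element and simple repeats such as runs of CA, and copies of such a repeat in opposite orientation can pair with each other.

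The stems on which the structures below turn are given first, 5′ to 3′ from the deposited RNA, with the bases of G-U pairs in capitals. They are the 4 longest uninterrupted stems of the long records, and each joins 2 arms that lie apart.
TCONS_00250339 first arm: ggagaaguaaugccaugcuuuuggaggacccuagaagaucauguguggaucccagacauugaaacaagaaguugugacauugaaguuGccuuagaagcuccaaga
TCONS_00250339 second arm: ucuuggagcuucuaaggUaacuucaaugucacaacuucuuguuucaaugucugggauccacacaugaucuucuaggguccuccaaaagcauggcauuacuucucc
TCONS_00238053 first arm: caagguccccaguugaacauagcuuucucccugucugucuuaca
TCONS_00238053 second arm: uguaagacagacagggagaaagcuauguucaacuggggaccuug
TCONS_00229577 first arm: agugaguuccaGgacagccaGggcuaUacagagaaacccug
TCONS_00229577 second arm: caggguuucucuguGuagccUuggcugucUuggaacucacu
TCONS_00249963 first arm: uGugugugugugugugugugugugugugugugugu
TCONS_00249963 second arm: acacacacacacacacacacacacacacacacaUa

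The next sequences show simple and tandem repeats. In the first pair the capitals mark the longest runs of CA found in any of the long records, and the third line gives the unit of the most repetitive record, TCONS_00166070, in which this unit lies head to tail.
TCONS_00192514: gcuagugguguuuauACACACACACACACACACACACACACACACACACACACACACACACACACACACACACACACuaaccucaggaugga
TCONS_00195703: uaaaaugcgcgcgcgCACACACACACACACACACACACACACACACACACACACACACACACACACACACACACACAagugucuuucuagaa
TCONS_00166070 unit: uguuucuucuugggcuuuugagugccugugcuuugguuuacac

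The following windows show how long records overlap. In each, the capitals are bases of one record that are also the first bases of another record, and the lower case bases lie just before the overlap. The first window is from TCONS_00034842, where TCONS_00040722 begins, and the second is from TCONS_00209794, where TCONS_00208133 begins.
TCONS_00034842: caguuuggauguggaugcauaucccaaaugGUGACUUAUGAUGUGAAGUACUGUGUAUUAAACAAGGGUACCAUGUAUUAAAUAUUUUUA
TCONS_00209794: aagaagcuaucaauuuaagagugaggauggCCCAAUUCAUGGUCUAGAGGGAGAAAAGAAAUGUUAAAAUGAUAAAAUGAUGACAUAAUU

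The 3 longest open reading frames lay on the complement of the deposited sequence. Their first and last 30 bases are shown as read on the complement, with the AUG and the stop codon in capitals.
TCONS_00051138 frame start: AUGgccuugcucuuuuguuucauucccggg
TCONS_00051138 frame end: uugaccuguccccagccucaaauucagUGA
TCONS_00071222 frame start: AUGgggaauccuacagagauaaucuuccag
TCONS_00071222 frame end: cuugagccaucgucaccucugguccuuUGA
TCONS_00161217 frame start: AUGucuauuuauuuucuaacacuguucaca
TCONS_00161217 frame end: agaagggcuccaucaagguggguagucUAA

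Of the RefSeq promoter windows, which run from 250 bases before to 50 bases after an annotated start, 2 that lie whole within a long record are shown as DNA in the direction of the gene, with the bases from the start onward in capitals. The Gm33496 window is chr6:126599175-126599474 on the plus strand and the Gm51887 window is chr11:30221402-30221701 on the plus strand, both in GRCm38.p6.
Gm33496: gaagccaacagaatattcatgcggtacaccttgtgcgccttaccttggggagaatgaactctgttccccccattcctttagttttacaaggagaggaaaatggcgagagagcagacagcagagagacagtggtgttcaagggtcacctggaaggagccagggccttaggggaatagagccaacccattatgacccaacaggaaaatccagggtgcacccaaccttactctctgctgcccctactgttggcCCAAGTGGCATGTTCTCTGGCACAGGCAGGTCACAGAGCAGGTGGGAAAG
Gm51887: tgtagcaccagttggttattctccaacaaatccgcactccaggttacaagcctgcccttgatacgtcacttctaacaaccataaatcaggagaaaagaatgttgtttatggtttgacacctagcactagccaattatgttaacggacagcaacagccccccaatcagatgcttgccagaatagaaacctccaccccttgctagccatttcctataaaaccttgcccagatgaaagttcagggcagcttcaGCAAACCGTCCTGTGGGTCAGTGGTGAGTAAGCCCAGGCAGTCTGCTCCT

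The long records had a mean length of 3600 nt (SD 1244, n = 483) and a median of 3130 nt, with quartiles at 2763.5 and 4057.5 nt. The shorter records had a median of 1080 nt. Of the 483 long records, 278 had at least 3000 nt, 126 at least 4000 nt, 56 at least 5000 nt and 13 at least 7000 nt. The longest were TCONS_00034842 with 10118 nt, TCONS_00168936 with 9420 nt, TCONS_00250339 with 9090 nt, TCONS_00221181 with 8685 nt and TCONS_00104449 with 8494 nt. They were followed by TCONS_00088342 with 8229 nt, TCONS_00111055 with 8137 nt, TCONS_00040722 with 7961 nt, TCONS_00197204 with 7538 nt and TCONS_00197778 with 7295 nt. At the threshold, the shortest included records were TCONS_00019676 with 2500 nt and TCONS_00156703 with 2502 nt, and the longest excluded ones were TCONS_00067419 with 2496 nt and TCONS_00034827 with 2494 nt. Their GC contents were 44.0% and 41.3% inside and 34.3% and 40.8% outside.

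**Figure D1:**
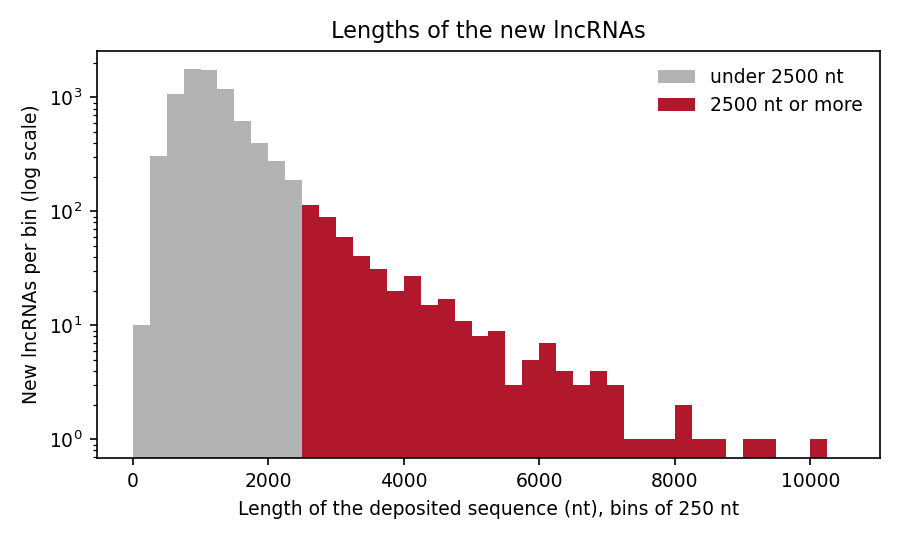
The number of new lncRNAs (log scale) is plotted against the length of the deposited sequence in bins of 250 nt, in grey under 2500 nt and in red from 2500 nt. The counts fall beyond 2500 nt to a tail of scattered records with empty bins between them, and the longest record has 10118 nt.

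Long records were poorer in G and C, and their CpG ratio, defined below, was lower. Their GC content was 40.02% (SD 4.17, n = 483) against 42.0% (SD 5.75, n = 7557), a difference of -1.94 percentage points (SE 0.219, adjusted p = 3.21e-18). Against records of 1500 to under 2500 nt only, it was -1.15 points and passed. In each such test a linear fit across all records gave the difference, its standard error was clustered on records that share sequence, and the two-sided p was adjusted by the Benjamini-Hochberg method over 15 properties. Records are transcripts and not replicates of a condition, so these tests describe the deposited set. In all, 259 long records (53.6%, Wilson 95% interval 49.2 to 58.0) had under 40% GC, against 37.7% of the shorter ones, and 6 (1.24%, 0.571 to 2.68) had 50% or more, against 8.23%. The highest GC content was 52.0% in TCONS_00101922 and the lowest 29.6% in TCONS_00088307.

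The CpG ratio, which is the number of CpG dinucleotides divided by the number that the C and G content would give, was 0.170 (SD 0.0682) in long records and 0.208 (SD 0.133) in shorter ones (difference -0.0379, SE 0.00363, adjusted p = 8.59e-25, n = 8040), and against records of 1500 to under 2500 nt only the difference was -0.0225, which passed. CpG is depleted in most of the mouse genome and kept in CpG islands, and a ratio near 1 would mean no depletion. The highest ratio among the long records was 0.530, in TCONS_00025550, and the lowest was 0.0324, in TCONS_00251092. No long record reached the level of the highest shorter one, which was 2.56.

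Composition was also compared between the strand as deposited and its complement, by skews that are 0 where both are alike. The G over C skew, the excess of G over C in percent of both, was -0.787 (SD 5.81) in long and 0.224 (SD 9.40) in shorter records (difference -1.01, SE 0.292, adjusted p = 8.72e-04, n = 8040). With only the longest record of each sharing group kept, the difference was -0.583 and did not pass the threshold. The U over A skew was -0.526 and -0.757, and this difference of 0.231 (95% interval -0.344 to 0.806) did not pass the test (adjusted p = 0.462, n = 8040). Among long records the G over C skew ran from -21.0 in TCONS_00236611 to 15.5 in TCONS_00251092, and the U over A skew from -21.1 in TCONS_00229261 to 28.6 in TCONS_00166070.

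Which genomic strand the deposited sequence follows was read from records that hold a whole RefSeq promoter window. There were 44 such records of any length, and in 44 of 44 the deposited sequence ran along the plus strand of the chromosome, including 17 whose gene lies on the minus strand. Of these records 3 were long ones, all at genes on the plus strand. The deposited strand is therefore called the given strand here and is not taken as the strand of transcription, although the library protocol describes labelling of a single cDNA strand with deoxy-UTP.

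Free energy per 100 nt was nearly the same in both classes, at -28.0 kcal/mol (SD 3.06) in long and -28.2 (SD 4.45) in shorter records. The difference of 0.157 kcal/mol per 100 nt had a 95% interval from -0.163 to 0.477 and did not pass the test (adjusted p = 0.389, n = 8040). Since the long records held less G and C, the comparison was repeated at equal GC content, with GC as a covariate. It then gave -1.19 kcal/mol per 100 nt (SE 0.0521, adjusted p = 1.68e-114, n = 8040), so the long records had the lower free energy at a given GC content. It was -0.449 against records of 1500 to under 2500 nt only, and passed. Of the 483 long records, 423 (87.6%) lay below the line fitted to all records, whose slope was -0.691 kcal/mol per 100 nt for each percent of GC. The lowest free energy per 100 nt was -37.5 kcal/mol in TCONS_00101922, the record with the highest GC content, and the highest was -21.5 kcal/mol in TCONS_00141217.

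**Figure D2:**
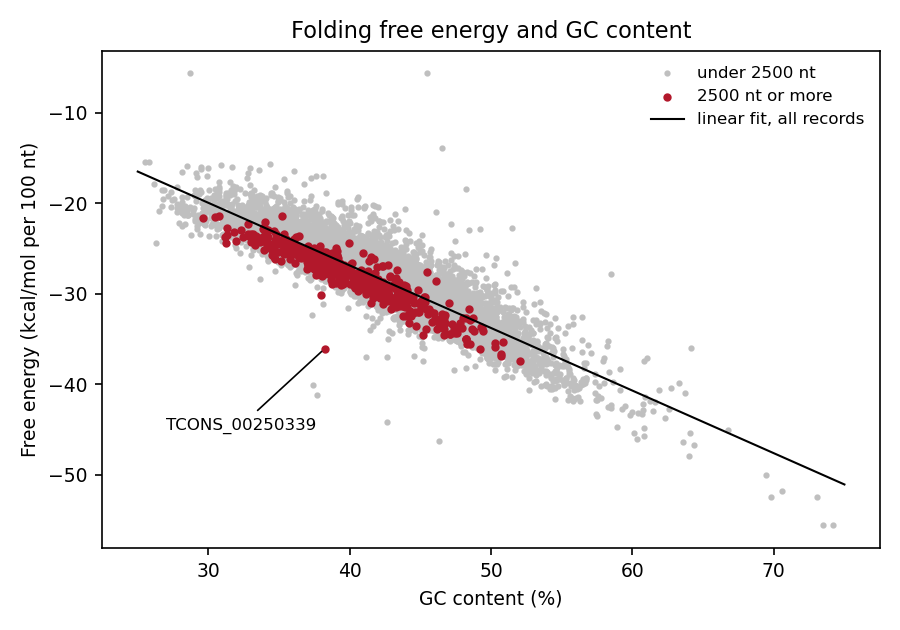
Deposited free energy in kcal/mol per 100 nt is plotted against GC content in percent, with 1 point per record, red from 2500 nt and grey below, and the linear fit over all records as a line. Most red points lie below the line, 423 of 483, and TCONS_00250339 stands far below it at -36.1 kcal/mol per 100 nt and 38.2% GC.

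The distance from that line went with length among the shorter records and less evenly among the long ones. It averaged 0.985 kcal/mol per 100 nt (SE 0.0517, n = 2016) at 205 to 849 nt, -0.111 (SE 0.0273, n = 4053) at 850 to 1499 nt and -0.671 (SE 0.0373, n = 1488) at 1500 to under 2500 nt. Among the long records it was -0.992 (SE 0.0804, n = 205) at 2500 to 2999 nt, -1.14 (SE 0.0873, n = 152) at 3000 to 3999 nt, -1.06 (SE 0.0966, n = 70) at 4000 to 4999 nt and -1.54 (SE 0.184, n = 56) at 5000 nt or more. The first 3 of these values lie close to each other against their standard errors, while the longest class was lower. That class includes TCONS_00250339, which lay at -10.4 kcal/mol per 100 nt, and its mean without this record was not computed. When only the first 500 nt of each record were folded, the same difference at equal GC content was 0.0594 kcal/mol per 100 nt (SE 0.105), so the lower energy was not present in a window of fixed length. The free energy of these windows without the GC term was higher in the long records by 1.51 kcal/mol per 100 nt (SE 0.223).

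**Figure D3:**
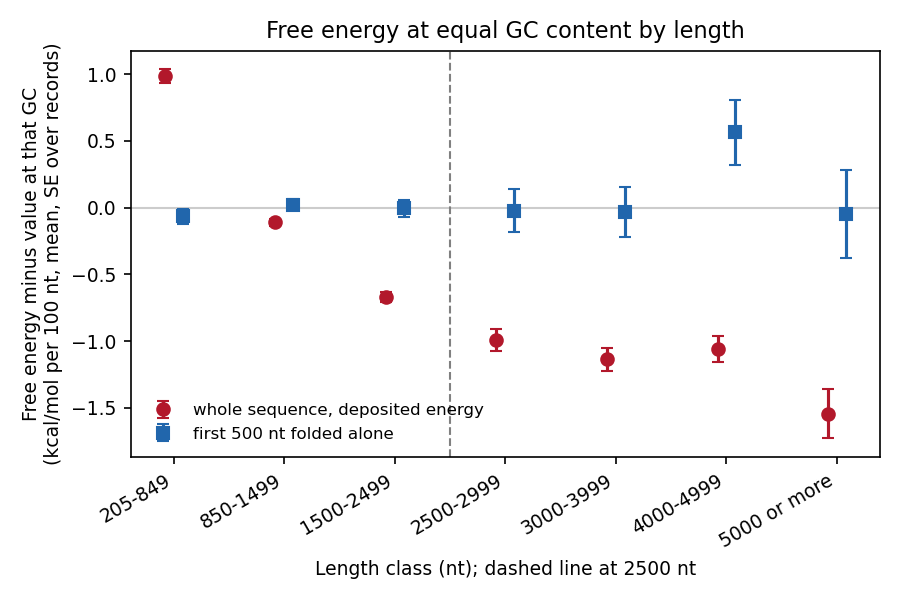
The mean free energy minus the value fitted at the same GC content (kcal/mol per 100 nt, bars are the SE over records) is plotted by length class, in red for the deposited energy of the whole sequence and in blue for the first 500 nt folded alone. The red means fall from 0.985 in the shortest class to -1.54 in the longest, while the blue means stay near 0 in every class except 4000 to 4999 nt, where the mean is 0.563 (SE 0.246).

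The bases of long records were paired slightly more often, 59.3% (SD 1.90) against 58.6% (SD 3.35), a difference of 0.697 percentage points (SE 0.0987, adjusted p = 4.90e-12, n = 8040). Against records of 1500 to under 2500 nt only, the difference was 0.188 points and did not pass. The range among the long records was narrow, from 51.0% in TCONS_00236611 to 65.9% in TCONS_00250339. Folding reached further in the long records, where a mean of 22.7% (SD 4.92) of the pairs joined bases more than 500 nt apart, against 12.8% (SD 8.42) in shorter records, which have less room for such pairs. The number of separate folding domains, stems that open on the unpaired exterior, was almost the same at every length, 2.06 (SD 0.947) in long and 1.97 (SD 0.933) in shorter records. Counted per kb it was therefore lower in long records, 0.621 against 2.001 (difference -1.38, SE 0.0217), and against records of 1500 to under 2500 nt only the difference was -0.484 per kb. With a count that hardly changed with length, these per-kb differences follow from length itself, by which the records were chosen. They are not a separate result on folding. A mean of 91.4% (SD 12.6) of the bases of a long record lay in its largest domain. The mean was 87.4% (SD 15.2) in shorter records and 89.1% in those of 1500 to under 2500 nt. Among the long records TCONS_00238053 had the lowest share, 34.5%, in 4 domains.

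Long uninterrupted stems set a few of the long records apart from the others. The longest run of stacked pairs had a median of 13 bp in long records, with quartiles at 12 and 15 bp, and a median of 11 bp in shorter ones. It reached 20 bp in 21 long records (4.35%, Wilson 95% interval 2.86 to 6.56), against 0.992% of the shorter ones. It reached 30 bp in 5 long records (1.04%) and in 18 shorter ones (0.238%). The longest stem of a shorter record had 80 bp. A longer sequence holds more chances for a long stem, and these shares were not set at equal length.

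TCONS_00250339 had the longest stem of the long records, 105 bp with 1 G-U pair, between bases 208 to 312 and 8985 to 9089 of its 9090 nt, so that 8672 bases lie between the arms. The arms printed first above thus join both ends of the transcript. When unpaired gaps of up to 3 bases a side were allowed, the helix grew to 318 bp, from bases 208 to 528 and 8769 to 9089. Pairs within 50 bases of this axis made up 736 pairs, or 24.6% of its pairs, and extended as far as bases 4653 and 4659 near its middle. Its free energy was the furthest below the line among the long records, by -10.4 kcal/mol per 100 nt, followed by TCONS_00223917 at -4.67 and TCONS_00165445 at -4.06. The furthest above it were TCONS_00222012 at 3.02 and TCONS_00085531 at 2.51. TCONS_00250339 shared almost nothing with other records, as 0.0332% of its 50-base words were found elsewhere.

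Among the next stems, 2 joined repeat sequences. TCONS_00238053 had a stem of 44 bp with no G-U pair, between bases 4 to 47 and 1743 to 1786. TCONS_00229577 had a stem of 41 bp with 3 G-U pairs and 111 bases between its arms, which was part of a helix of 74 bp. Its first arm holds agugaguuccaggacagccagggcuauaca, a stretch of the type found in B1 elements, which 8 long records carried on the given strand and 1 on the complement. Among the shorter records 14 and 2 carried it. In TCONS_00249963 a run of GU paired with a run of CA over 35 bp, with 1898 bases between them. TCONS_00111058 had a stem of 31 bp inside a helix of 217 bp.

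**Figure D4:**
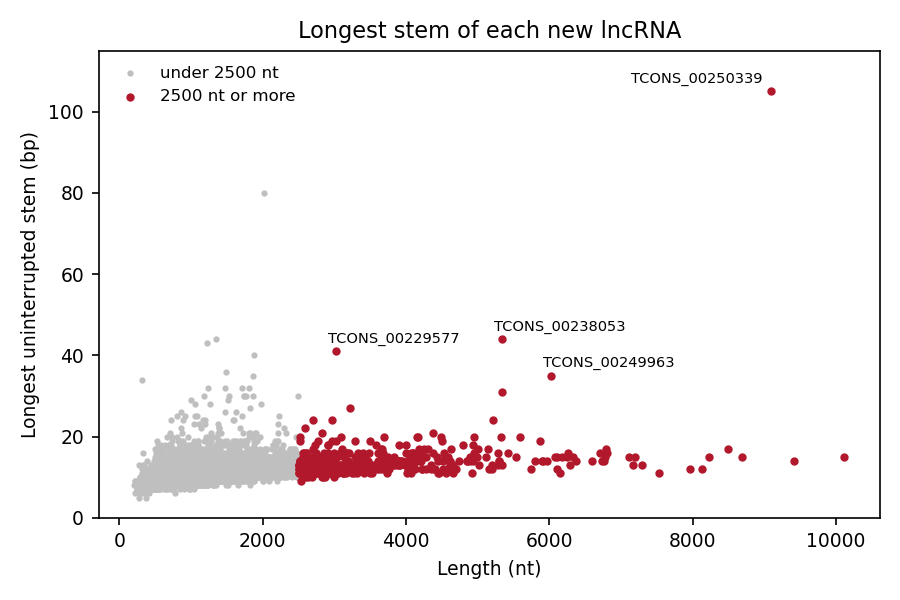
The longest uninterrupted stem of each record in bp is plotted against its length in nt, red from 2500 nt and grey below. Nearly all long records have a stem under 20 bp, and TCONS_00250339 stands apart with 105 bp.

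Runs of CA or GU of at least 20 bases were found in 96 long records (19.9%, Wilson 95% interval 16.6 to 23.7), against 5.73% (5.23 to 6.28) of the shorter ones, and the long records held 110 such runs. Per kb the long records had 0.0619 runs (SD 0.136) and the shorter ones 0.0502 (SD 0.220), a difference of 0.0116 with a 95% interval from -0.00443 to 0.0277 that did not pass the test (adjusted p = 0.195, n = 8040). The runs were mostly CA on the given strand, 77 CA against 33 GU, or 70% CA (Wilson 95% interval 60.9 to 77.8), and the share in the shorter records was 68.8%. Some runs were counted more than once, because overlapping records such as TCONS_00180204 and TCONS_00181732 hold the same run. The interval does not allow for this. The longest runs had 62 bases of CA, in TCONS_00192514 at bases 2237 to 2298 and in TCONS_00195703 at bases 1800 to 1861. TCONS_00195703 held another CA run of 52 bases at 1684 to 1735, after a stretch of alternating G and C.

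Of the 96 records, 4 held both kinds of run, and in 4 of 4 the runs were paired with each other in the deposited structure. These were TCONS_00012430 with 20 pairs between its runs, TCONS_00064585 with 20, TCONS_00151672 with 24 and TCONS_00249963 with 33. Their longest stems were 20, 21, 24 and 35 bp in this order. These stems were formed by the paired runs, which were selected to have at least 20 bases. Their lengths are therefore not set against those of the other long records.

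Internal repetition, the percent of a record's 20-base words that occur more than once in it, was 0.321% (SD 0.972) in long and 0.349% (SD 1.89) in shorter records, and the difference did not pass the test (-0.0285, 95% interval -0.118 to 0.0611, adjusted p = 0.533, n = 8040). It was above 0 in 192 long records (39.8%), against 14.8% of the shorter ones, and above 1% in 44 (9.11%), against 8.96%. TCONS_00166070 had the highest value, 16.3%. In it a unit of 43 bases was repeated about 5.70 times without a changed base, between bases 1756 and 2000, and this record also had the highest U over A skew. The next were TCONS_00013002 at 6.61% with a unit of 31 bases, and TCONS_00051138 at 6.25% with a unit of 71 bases. The unit of TCONS_00051138 lies at bases 1361 to 1553 and so outside the longest frame described next.

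Open reading frames, counted from AUG to a stop codon, showed a limit on the given strand only. No long record had a given-strand frame of 100 codons (0 of 483, Wilson 95% upper bound 0.789%), and the longest had 99 codons, in TCONS_00064635, TCONS_00101665 and TCONS_00184765. The shorter records had none either (0 of 7557), and their longest given-strand frame also had 99 codons. This limit is therefore shared by the whole deposited set. The study kept transcripts without coding potential, and the measure it used for this was not given in the sources used here. A complement frame of 100 codons or more was present in 85 long records (17.6%, 14.5 to 21.2), against 6.81% of the shorter ones (difference 10.8 percentage points, SE 1.97, adjusted p = 9.65e-08, n = 8040). The difference was 5.64 points against records of 1500 to under 2500 nt only, and passed. Within the first 1000 nt alone, against the 4409 shorter records of at least 1000 nt, it was -0.213 points. With a minimum of 150 codons and all shorter records it was 0.395 points, and neither difference passed.

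The 85 records held 108 such frames with a median of 114 codons, a mean GC content of 44.7% (SD 5.25 over frames) and a median of 9.95% of the record's length. There were 17 records with more than 1 such frame, a count given for the long records only. A frame of at least 150 codons was present in 6 long records (1.24%), against 0.847% of the shorter ones. The longest was in TCONS_00051138, 206 codons at bases 2977 to 3597 of the given sequence. It was followed by TCONS_00071222 with 188 codons at bases 864 to 1430 and TCONS_00161217 with 187 codons at bases 1907 to 2470. Whether any of these frames is translated was not measured. The longer frame of a record lay on the complement in 312 long records (64.6%) and on the given strand in 162 (33.5%), against 56.3% and 41.5% in shorter records. Part of this was fixed in advance, since no given-strand frame in either class had 100 codons. The 85 long and 515 shorter records with a complement frame of that length thus count for the complement by construction.

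Frames just under 100 codons were frequent on both strands of the long records. A longest frame of 80 to 99 codons was found on the given strand of 149 long records (30.8%, 26.9 to 35.1), against 9.02% of shorter ones, and on the complement of 136 (28.2%, 24.3 to 32.3), against 11.2%. On the given strand the share was already 17.6% in the shorter records of 1500 to under 2500 nt. It was 20% at 2500 to 2999 nt, 34.9% at 3000 to 3999 nt, 35.7% at 4000 to 4999 nt and 53.6% (40.7 to 66.0) at 5000 nt or more. This share thus rose with length across the threshold of 2500 nt. The contrasts between long and shorter records on both strands were not set at equal length. Frames of at least 50 codons per kb were 0.795 (SD 0.507) in long and 0.685 (SD 0.799) in shorter records on the given strand (difference 0.111, SE 0.0270, adjusted p = 7.65e-05, n = 8040), and 0.906 and 0.830 on the complement (difference 0.0759, SE 0.0245, adjusted p = 0.00290, n = 8040). Against records of 1500 to under 2500 nt only, these differences were 0.00494 and -0.00659 per kb and did not pass the test.

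**Figure D5:**
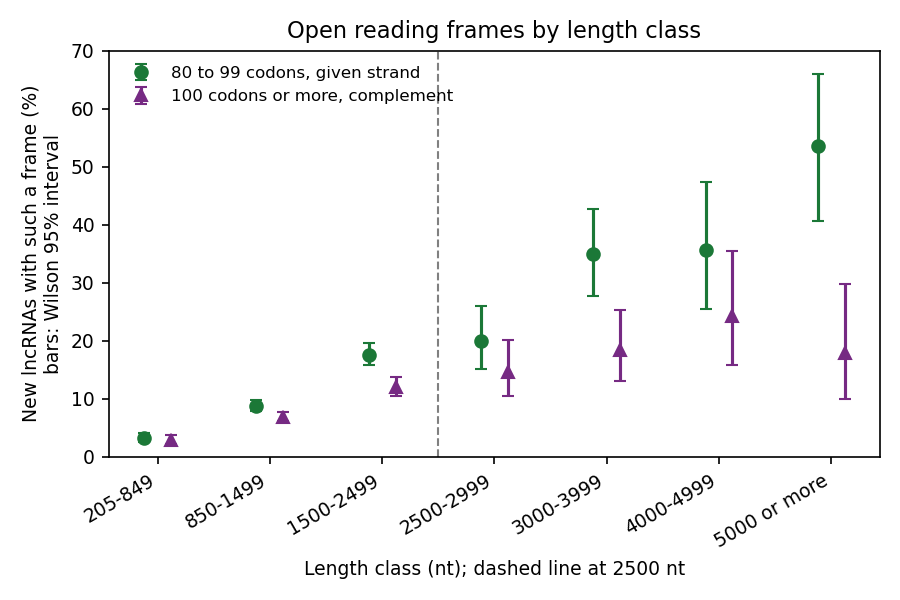
The percent of records with a longest given-strand frame of 80 to 99 codons (green) and with a complement frame of at least 100 codons (purple) is plotted by length class, with Wilson 95% intervals as bars. The green share rises to 53.6% in the longest class, and the purple share is 14.6%, 18.4%, 24.3% and 17.9% in the 4 classes from 2500 nt, with overlapping intervals.

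Many of the long records shared sequence with another record. An exact stretch of 50 bases on the same strand was shared with another record by 275 long records (56.9%, Wilson 95% interval 52.5 to 61.3), against 37.2% of the shorter ones (difference 19.7 percentage points, SE 3.50, adjusted p = 4.38e-08, n = 8040). Against records of 1500 to under 2500 nt only, the difference was 7.27 points (SE 3.08) and still passed. Among the 275 long records, the longest stretch was under 100 bases in 42, from 100 to under 300 bases in 10 and at least 300 bases in 223. Of the 223, 147 had at least 1000 bases. Sharing was therefore mostly long in these records, and this split by stretch length is given for the long records only. A stretch of 100 bases on the same strand was shared by 48.2% of the long and 33.4% of the shorter records. With the complement of another record, 38 long records (7.87%) shared such a stretch, against 2.79%, and the difference of 5.08 points (95% interval -1.30 to 11.5) did not pass the test (adjusted p = 0.162, n = 8040). With stretches of 100 bases the shares were 0.207% and 0.159%, a difference of 0.0482 points.

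Stretches of 300 bases or more linked 112 long records to another long record and 147 to a shorter record. Grouped by these stretches, the 483 records formed 419 groups, of which 54 had several long records, 118 records in all. The largest groups had 4 long records each. In one were TCONS_00088246 with 6111 nt, TCONS_00086583 with 4846 nt, TCONS_00086585 with 3402 nt and TCONS_00088245 with 2653 nt. In the other were TCONS_00209794 with 6327 nt, TCONS_00208133 with 6153 nt, TCONS_00214243 with 5747 nt and TCONS_00211203 with 2792 nt. By stretches of 50 bases a single group held 66 long records and 412 records in all, with a median longest stretch of 238.5 bases for its long records, and the next group held 4.

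The position of the shared stretch followed one pattern. Among 266 pairs with a long record and a stretch of at least 300 bases, the stretch was the end of one record and the start of the other in 209 pairs (78.6%, Wilson 95% interval 73.3 to 83.1). A record lay wholly inside its partner in 31 pairs (11.7%), and in 20 pairs (7.52%) the end of one record lay inside the other. The pairs that had the same first bases were 2, those with the same last bases 3, and in 1 pair the stretch lay inside both. Among 1294 pairs of shorter records the share from end to start was 84.8% (82.7 to 86.6). In all, 197 long records (40.8%) took part in such an overlap, 55 of these pairs joining 2 long records and 154 joining a long and a shorter record. The share of shorter records that took part is not given here, so the 40.8% is not set against it.

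The longest overlap was 4677 bases, the first bases of TCONS_00208133 and the last of TCONS_00209794, and the joined sequence would have 7803 nt. TCONS_00208133 overlapped TCONS_00214243 from its other end by 3923 bases, so that these 3 records follow one another. The longest record, TCONS_00034842, ended in 3995 bases that begin TCONS_00040722, another of the 10 longest, and joined they would have 14084 nt.

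Whole windows at an annotated gene start were rare in the deposited set, held by 44 of 8040 records. Of these 44, 3 were long, and long records were 6.01% of all records. Matches to part of a window are given for the long records only. Of 32851 RefSeq promoter windows of 27025 genes, a stretch of at least 100 bases was found in 6 long records, at 6 genes, and 0 of 1005 miRNA hairpins was found whole. TCONS_00197204 and TCONS_00199891 hold the whole window of Gm33496, a lncRNA gene that RefSeq places between the lncRNA gene Gm33449 and Kcna1, which encodes a voltage-gated potassium channel of neurons. The start of Gm33496 lies at base 4662 of TCONS_00197204, so 4661 bases of this record precede it, and at base 1296 of TCONS_00199891. Both had high GC contents, 50.7% and 50.3%. Both belong to a group of 3 long records with TCONS_00199070 of 5420 nt.

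TCONS_00034773 holds the whole window of Gm51887, a lncRNA gene inside the interval of Sptbn1, which encodes a spectrin of the membrane skeleton, and 1295 of its 2598 bases precede the start. TCONS_00148428 holds 247 bases of the window of LOC102640985, at chr3:81924585-81924831 in GRCm38.p6, on its complement, and begins 197 bases before that start when read along the gene. TCONS_00101010 ends in 132 bases of the window of Gm36117, which lies between Sod2 and Gpr31b, and holds 103 bases of that of Gm36684. TCONS_00194169 holds 100 bases of the window of Olfr1490. The last 2 matches stop inside the record, where the sequences part, so they do not place the record at that gene.

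In the windows that hold a start, the TATA box motif TATAAA, the CCAAT box, the E-box CACGTG and the CRE motif TGACGTCA were searched on both strands. The Gm51887 window had TATAAA beginning 39 bases before the start, a motif held by 13.6% of all windows, and CCAAT beginning 121 and 91 bases before it, a motif held by 37.4%. The E-box and the CRE motif, held by 7.15% and 1.79% of all windows, were not found in any of them, and the Gm33496 and LOC102640985 windows held none of the 4. The hexamer AAUAAA, the usual poly(A) signal, was found within the final 50 bases of 17 long records (3.52%, Wilson 95% interval 2.21 to 5.56), in the last 50 bases of the complement of 16 (3.31%) and in 50 bases at the middle of 20 (4.14%). These shares overlap within their intervals, and the shorter records had 3.92%, 3.64% and 3.97%.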

How the data were processed

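Cortex RNA of 3 control and 3 SAH libraries was depleted of ribosomal RNA by the authors, and reads were aligned with TopHat2, which the submitters' processing notes name together with the build mm10. Unannotated transcripts over 200 bp without coding potential were deposited by the authors as records of sequence, structure and free energy, pooled over all libraries. The assembler, the coding potential tool and the folding program were not given in the sources used here. Each structure was evaluated again with RNAeval (ViennaRNA 2.7.2, its older Turner parameter file, dangling-end setting 1), and 8040 of 8040 results matched the deposited value to 0.01 kcal/mol, so these are in kcal/mol. No count, position or depth is given per record, so no count test was possible, and intervals of shares cover counting error only.

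The 15 properties are compared in the report by linear fits across all records with an indicator of 2500 nt or more, standard errors clustered on records that share an exact stretch of 50 bases on either strand, two-sided p and Benjamini-Hochberg adjustment over the 15, with a threshold of 0.05. Frames are the longest AUG-to-stop reading per stop codon. The first 500 nt of each record of at least 500 nt were folded with RNAfold. Alternatives were the thresholds of 2000 and 3000 nt, a comparison with records of 1500 to under 2500 nt, the longest record of each sharing group, unclustered errors, the first 1000 nt, and other minima for frames, stretches, tracts and words. The first 1000 nt were read only in records of at least 1000 nt, which left 4409 shorter records.

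Gene names and windows are from RefSeq (GRCm38.p6), matched by sequence. Transcripts were named where they were among the 10 longest, next to the threshold, highest or lowest in a property, the longest in stem, frame, tract, repetition or shared stretch, or matched to RefSeq; the 66 records of the largest group by 50 bases were only counted. Further records with long stems, extreme distances from the energy line, both kinds of tract or more than 1 overlap were named after their values were seen. The records and lists were chosen with earlier results of these data known. Python 3.11.15, numpy 2.4.6, pandas 2.3.3, scipy 1.17.1, statsmodels 0.14.6 and matplotlib 3.10.9 were used. On simulated data, 200 of 200 planted frames, 200 of 200 stems, 100 of 100 shared pairs and 200 of 200 tracts were recovered.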

Additional observations from a re-analysis of the deposited data

How the results depend on the processing

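Of 92 values under the alternatives, 73 kept their direction and their side of the threshold, 9 changed direction, 6 no longer passed and 4 newly passed. Differences are long minus shorter records. With the threshold at 2000 nt, internal repetition was 0.133 percentage points and the U over A skew -0.126, and at 3000 nt the U over A skew was -0.116, none of which passed the test in either setting. Against records of 1500 to under 2500 nt only, paired bases were 0.188 points, frames per kb 0.00494 on the given strand and -0.00659 on the complement, the G over C skew -0.670, and none of these passed, while internal repetition at -0.161 points did. With the longest record of each sharing group only, complement frames were 0.0608 per kb and the G over C skew -0.583, and neither passed. Without clusters the antisense difference of 5.08 points passed. With the first 500 nt folded alone, free energy was 1.51 kcal/mol per 100 nt and passed, free energy at equal GC content was 0.0594 and paired bases -0.445 points. In the first 1000 nt, frames per kb were -0.0135 on the given strand and -0.00228 on the complement, the share with a complement frame of 100 codons was -0.213 points, and internal repetition was -0.150 points, which passed. With a minimum of 150 codons that share was 0.395 points. The windows of 500 and 1000 nt are of equal length in both classes by construction; otherwise the cause was not tested. The 2 results on stretches shared between records could not be had from the longest record of each group. No paired analysis was possible because no record has a value per library, and leaving out a library was not possible for the same reason.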

Other observations

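Composition was also read at the ends of the records. In the first 100 nt of the long records the G over C skew was 0.336 (SE 1.11, n = 483), at the middle -1.88 (SE 0.999) and in the last 100 nt -2.81 (SE 1.04). In the shorter records it was 2.45 (SE 0.269, n = 7557), -0.00600 (SE 0.262) and -2.30 (SE 0.270), so the last bases had the lowest value in both classes. GC content differed little along the long records, at 40.1%, 40.4% and 40.4% in the same places.

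The AU-rich motif AUUUA, known from unstable mRNAs, occurred 2.21 times per kb on the given strand and 2.28 times on the complement of the long records, against 2.01 and 2.04 in the shorter ones. GUAAGU, the start of many introns, occurred 0.228 and 0.224 times per kb in the long records and 0.225 and 0.211 in the shorter ones. These densities were not tested.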
